A study of Mus musculus with 6 samples.

Results

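The genes described here encode the enzymes of the urea cycle and of amino acid breakdown, 44 genes taken by name from the 54777 genes of a liver expression table. They were sorted by the pathway in which the enzyme works, into the urea cycle (6 genes), nitrogen transfer (5), aromatic amino acids (5), histidine (3), glycine and its methylated precursors (9), branched chain amino acids (8), proline (3), lysine (2), cysteine (2) and asparagine (1). The rule that picks them is a list of names and uses no measured value, though the list was drawn up with earlier results of these data known. Each of the 44 symbols occurred in the table without a duplicate. RNA was sequenced from whole liver of 8-week-old male mice on normal chow, labelled C57BL/6 and of C57BL/6J background by the study's methods. The controls were Wtapflox/flox mice (3 livers), whose Wtap alleles carry a floxed exon 4, and the mutants were Wtap-HKO mice (Wtapflox/flox Alb-Cre+/-, 3 livers), which have the same floxed alleles and in addition Cre recombinase under the albumin promoter. The albumin promoter drives Cre in hepatocytes, and whether the other cells of a Wtap-HKO liver keep the gene was not measured here. WTAP is a regulatory partner of the methyltransferase that places N6-methyladenosine on nuclear RNA. The comparison asks how the transcripts for amino acid breakdown stand when hepatocytes lose Wtap.

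Hepatocytes take amino acids apart, pass the nitrogen to glutamate, ammonia and aspartate, and join it into urea, which leaves with the urine. The cycle starts in the mitochondrion, where carbamoyl phosphate is made and joined to ornithine, and ends in the cytosol, where arginase releases urea. In healthy liver the urea cycle enzymes are richest in the periportal hepatocytes, which meet the incoming blood first. The carbon skeletons that remain of the amino acids feed glucose, ketone body and fat metabolism.

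Values were deposited as FPKM, reads scaled to gene length and library size, so that levels of different genes can be set side by side. The reads behind them summed to between 15559250 and 18510477 per library, and each member was counted with at least 112 reads in every library. A gene was called higher or lower at an adjusted p under 0.05 by limma on log2(FPKM + 0.2), adjusted over the 16547 genes tested. The deposited values already carried a scaling between libraries, since the library size used was 0.834 to 0.846 times the reads in Wtapflox/flox and 1.17 to 1.24 times the reads in Wtap-HKO. Each result was therefore also computed on the TPM scale, on which every library has the same sum and the median of all genes lies 0.56 higher in Wtap-HKO on the log2 scale, against 0.0054 on the deposited scale.

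Most of these genes were lower in Wtap-HKO liver. Of the 44 members, 35 were called lower, 1 (Asrgl1) was called higher and 8 were not called, and the background over all genes tested was 20.7% lower and 19.5% higher. The median log2 fold change of the members was -0.82, with a range from -1.67 (Prodh) to 0.93 (Asrgl1). In 38 members every Wtap-HKO library was below every Wtapflox/flox library, and in 1 member every one was above, where the background of such separation was 27.4% lower and 26.8% higher. The TPM scale gave 18 members lower, 5 higher and 21 not called, against a background of 6.02% lower and 48.8% higher, and the median of the members was -0.25. Thus 17 of the 35 genes called lower were not called on the TPM scale, where the remaining 18 were. The bulk RNA of a liver cannot tell fewer hepatocytes from less RNA per hepatocyte.

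**Figure D1:**
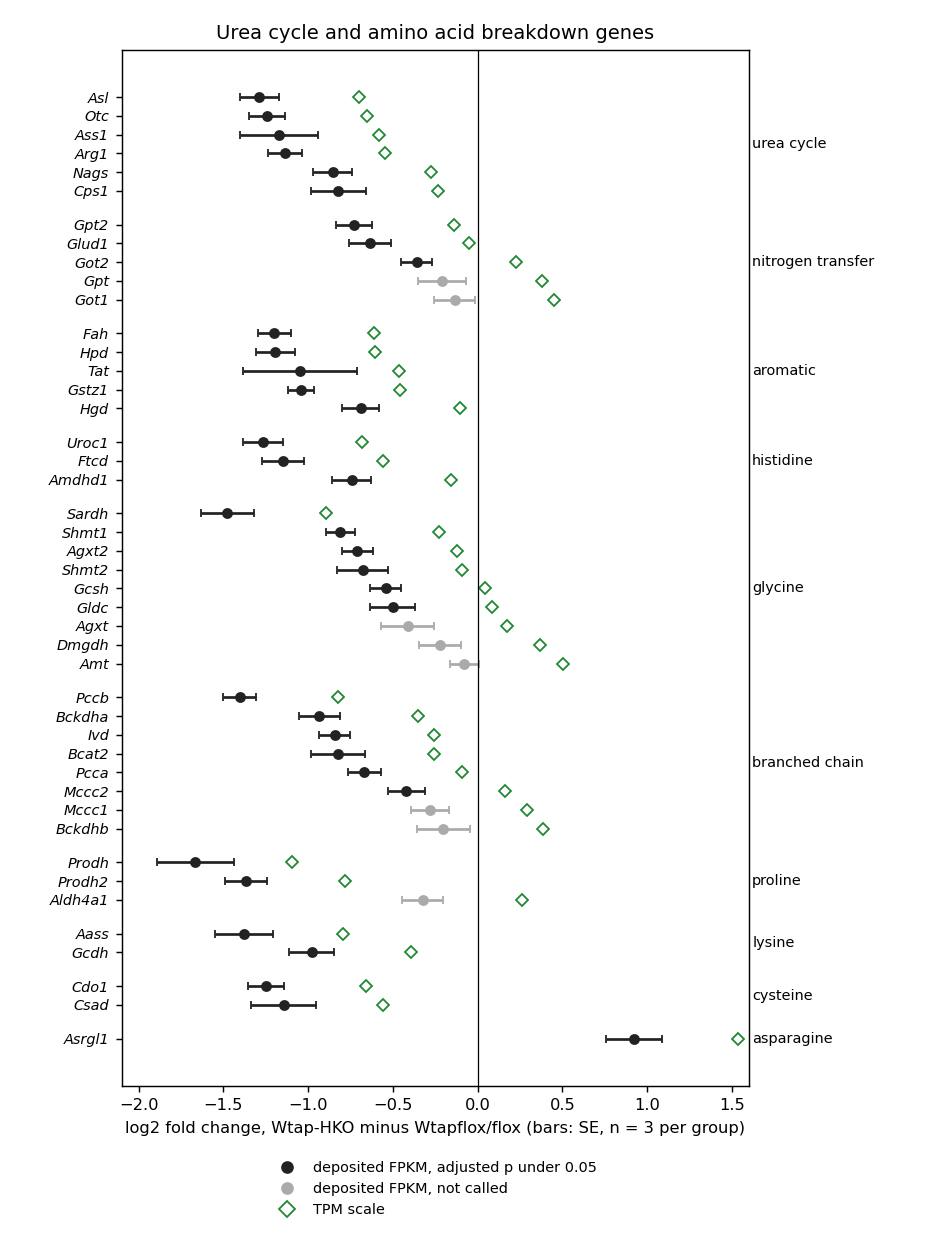
Log2 fold change (Wtap-HKO minus Wtapflox/flox, n = 3 per group) of the 44 members by pathway. Circles with SE bars are on the deposited FPKM scale, black where the adjusted p was under 0.05 and grey where it was not, and green diamonds give the same gene on the TPM scale. On the deposited scale only Asrgl1 lies above 0, and on the TPM scale all genes of the urea cycle, of the aromatic and histidine pathways and of lysine and cysteine breakdown lie below 0.

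A share within a library does not depend on the scaling between libraries. Their FPKM added up to 1.96% to 2.01% of all FPKM in the Wtapflox/flox libraries and to 1.63%, 1.40% and 1.61% in Wtap-HKO replicates 1, 2 and 3, and these ranges did not overlap. In FPKM the sums were 9329 to 9608 and 4698 to 5001. Cytosolic enzymes (17 genes) had a median log2 fold change of -1.14 with 14 lower and 1 higher. Mitochondrial enzymes (26 genes) had a median of -0.72 with 21 lower and 5 not called. On the TPM scale 9 of 17 cytosolic and 9 of 26 mitochondrial genes were lower, with 2 cytosolic and 3 mitochondrial genes higher. Over all genes tested 20.7% were lower and 19.5% higher on the deposited scale, against 6.02% and 48.8% on the TPM scale. The difference between compartments was not tested.

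Promoter sequences are shown for the called members with the largest fall, Prodh, and with the largest rise, Asrgl1, to place these opposite changes beside the DNA at their starts. Short stretches of the Hpd and Agxt2 promoters follow, which were chosen after the sequences were searched, because they hold the only match among the members to the AP-1 letters TGAGTCA and to the HNF4 letters CAAAGTCCA. All are from RefSeq on build GRCm38.p6, are printed 5′ to 3′ on the strand of the gene, and have matches in capitals. The Hpd stretch shows the AP-1 letters as read on the other strand. The Prodh window lies at chr16:18089141-18089440 and the Asrgl1 window at chr19:9135517-9135816, each running from 250 bases before the RefSeq start to 50 after it, the Hpd stretch lies at chr5:123182826-123182892 and the Agxt2 stretch at chr15:10358482-10358550. Agxt2 lies on the plus strand and the others on the minus strand.
Prodh: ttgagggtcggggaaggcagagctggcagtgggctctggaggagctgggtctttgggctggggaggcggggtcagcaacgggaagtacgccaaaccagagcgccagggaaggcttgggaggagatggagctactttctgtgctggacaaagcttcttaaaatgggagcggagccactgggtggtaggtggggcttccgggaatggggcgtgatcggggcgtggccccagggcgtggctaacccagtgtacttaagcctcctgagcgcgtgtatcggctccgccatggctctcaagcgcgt
Asrgl1: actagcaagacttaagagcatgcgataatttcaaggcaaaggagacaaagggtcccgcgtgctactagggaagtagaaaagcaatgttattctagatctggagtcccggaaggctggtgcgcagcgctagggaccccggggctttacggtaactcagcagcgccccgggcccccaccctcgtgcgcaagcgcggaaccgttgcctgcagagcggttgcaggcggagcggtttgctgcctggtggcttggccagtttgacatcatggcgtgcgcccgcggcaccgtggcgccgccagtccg
Hpd: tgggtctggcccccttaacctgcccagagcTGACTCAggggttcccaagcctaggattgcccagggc
Agxt2: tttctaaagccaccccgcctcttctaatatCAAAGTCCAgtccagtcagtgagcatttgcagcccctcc
The RefSeq start of Prodh lies 1013 bases inside the outer end of the gene in the expression table, and that of Asrgl1 lies 70 bases inside it. The 63% GC of the Prodh window and the 61.7% of the Asrgl1 window were both above the median of 52.7% over all genes, and the windows held 17 and 26 CG dinucleotides against a median of 7. Neither window held any of the motifs searched, which says only that these letters are not in it.

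The urea cycle genes were all lower in Wtap-HKO, at 41.1% (Asl) to 57.2% (Cps1) of the control mean. Cps1 (ENSMUSG00000025991, GRCm38 chromosome 1, 67123026 to 67231259), the mitochondrial synthetase that makes carbamoyl phosphate and commits ammonia to the cycle, stood at 1026, 964 and 1081 FPKM in Wtapflox/flox and at 682, 471 and 603 FPKM in Wtap-HKO. All Wtap-HKO libraries lay below all controls, and the log2 fold change was -0.82 ± 0.16 (SE, adjusted p by limma = 0.00804). Nags, which makes the N-acetylglutamate that Cps1 needs to be active, stood at 26.2, 25.2 and 27.1 FPKM and at 16.4, 14.6 and 12.4 FPKM, with a log2 fold change of -0.86 ± 0.11 (adjusted p = 0.00183). Otc, an X-linked gene for the transcarbamylase that makes citrulline, stood at 118, 104 and 108 FPKM and at 51.8, 42.2 and 45.9 FPKM, with a log2 fold change of -1.24 ± 0.11 (adjusted p = 3.93e-04). Otc, whose product completes the mitochondrial steps, thus lay at 42.3% of the control mean.

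The cytosolic steps gave similar or larger falls. Ass1, the argininosuccinate synthetase that brings in the second nitrogen from aspartate, had the highest control mean of the cycle and stood at 1030, 1171 and 1032 FPKM against 662, 353 and 467 FPKM (log2 fold change -1.17 ± 0.23, adjusted p = 0.00771). Asl, the lyase that splits argininosuccinate into arginine and fumarate, stood at 154, 157 and 140 FPKM against 67.3, 53.5 and 64.1 FPKM (log2 fold change -1.29 ± 0.11, adjusted p = 4.48e-04). Arg1, the liver arginase that releases urea, stood at 747, 720 and 685 FPKM against 337, 330 and 312 FPKM (log2 fold change -1.14 ± 0.10, adjusted p = 4.67e-04). Ass1 varied most among the Wtap-HKO libraries and Arg1 least. On the TPM scale Otc, Asl and Arg1 were lower, while Cps1 (-0.23, adjusted p = 0.311), Ass1 (-0.58, adjusted p = 0.0859) and Nags (-0.28, adjusted p = 0.0947) were not called.

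**Figure D2:**
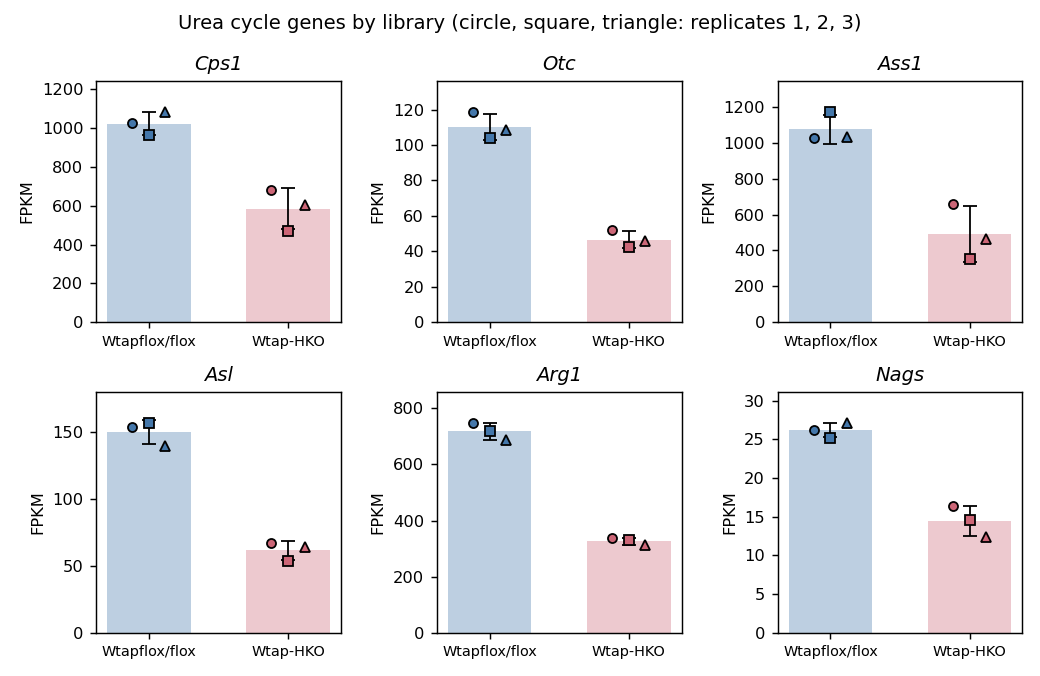
FPKM of the urea cycle genes in each library, with bars for group means and error bars for the SD (n = 3 per group). All Wtap-HKO values lie below all Wtapflox/flox values for each of the 6 genes, and within Wtap-HKO replicate 1 (circle) is the highest for each.

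Within the Wtap-HKO group all 6 urea cycle genes were highest in replicate 1, and Cps1, Otc, Ass1 and Asl were lowest in replicate 2, whereas Arg1 and Nags were lowest in replicate 3. Their summed level was 3073 to 3141 FPKM in Wtapflox/flox and 1817, 1263 and 1504 FPKM in Wtap-HKO replicates 1, 2 and 3. As a share of all FPKM this was 0.634% to 0.660% in Wtapflox/flox and 0.594%, 0.378% and 0.483% in Wtap-HKO, so that the urea cycle held a smaller share in every Wtap-HKO library. Within the cycle Cps1 took 30.7% to 35.2% of the summed FPKM in Wtapflox/flox and 37.3% to 40.1% in Wtap-HKO, without overlap. Asl took 4.55% to 4.98% in Wtapflox/flox and 3.71% to 4.26% in Wtap-HKO, also without overlap. The shares of the other 4 genes overlapped between the groups.

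Markers of stellate cells (5 of 5) and cholangiocytes (3 of 5) were higher in Wtap-HKO, with sums that were uneven among its livers. The 5 stellate cell markers (Col1a1, Col1a2, Col3a1, Acta2, Lrat) were all called higher, and their sum was 8.94 to 10.9 FPKM in Wtapflox/flox and 92.2, 24.4 and 63.6 FPKM in Wtap-HKO replicates 1, 2 and 3. The 5 cholangiocyte markers summed to 39.7 to 63.3 FPKM and to 262, 75.7 and 194 FPKM, with 3 of them higher (Spp1, Epcam and Sox9). Most of this sum was Spp1, at 36.4 to 57.7 FPKM in Wtapflox/flox and 241, 69.1 and 180 FPKM in Wtap-HKO. Krt7 and Krt19 were not called on the deposited scale and overlapped between the groups. Each of the 5 was lowest in replicate 2 among the Wtap-HKO livers. Replicate 2, in which both sums were lowest among the Wtap-HKO livers, also had the lowest summed urea cycle, nitrogen transfer and cysteine levels. The aromatic and asparagine sums were lowest in replicate 1, and those of the remaining pathways in replicate 3. Among the Wtap-HKO livers the histidine, glycine, branched chain and asparagine sums were highest in replicate 2. Of the other marker lists, 4 of 5 macrophage genes, 1 of 5 endothelial genes, 1 of 4 tested T and NK cell genes and 3 of 3 tested neutrophil genes were higher, and the 3 B cell genes tested were not called. The TPM scale gave 5 stellate, 4 cholangiocyte, 5 macrophage, 5 endothelial, 2 T and NK cell, 1 B cell and 3 neutrophil genes higher. Over all genes tested the background was 20.7% lower and 19.5% higher on the deposited scale, and 6.02% lower and 48.8% higher on the TPM scale. The endothelial count on the deposited scale and the T and NK cell counts on both scales lay near these shares. The macrophage sum was 94.6 to 116 FPKM in Wtapflox/flox and 182 to 194 FPKM in Wtap-HKO, and the neutrophil gene Ly6g was at 0 in 3 libraries. The tissue label held, since Alb stood at 40997 to 49617 FPKM in Wtapflox/flox and 18305 to 20909.5 FPKM in Wtap-HKO. Of 5 hepatocyte markers 4 were lower, with a median log2 fold change of -0.90 on the deposited scale and 1 lower on the TPM scale. The part of these cell types in the results for amino acid genes was not tested.

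Nitrogen transfer enzymes move amino groups between amino acids and glutamate. Of their 5 genes 3 were lower, with a median log2 fold change of -0.36, where 20.7% of all genes tested were lower. Glud1, the mitochondrial glutamate dehydrogenase that frees ammonia from glutamate, stood at 311, 297 and 314 FPKM in Wtapflox/flox and at 230, 173 and 194 FPKM in Wtap-HKO (log2 fold change -0.64 ± 0.12, adjusted p = 0.00754). Gpt2, the mitochondrial alanine aminotransferase, fell to 60.3% of the control mean (-0.73 ± 0.10, adjusted p = 0.00236) and Got2, the mitochondrial aspartate aminotransferase, to 78.0% (-0.36 ± 0.092, adjusted p = 0.0204). The cytosolic counterparts of these aminotransferases were not called and overlapped between the groups. Gpt stood at 107, 102 and 87.4 FPKM against 99.3, 86.3 and 72.3 FPKM, and Got1 at 164, 136 and 129 FPKM against 124, 123 and 141 FPKM. The call of Got2 was lost without Wtapflox/flox replicate 1 (adjusted p = 0.0656), without Wtapflox/flox replicate 2 (adjusted p = 0.0546) or without Wtap-HKO replicate 3 (adjusted p = 0.0550), where the adjusted p over all alternatives ran from 0.0169 to 0.0656. On the TPM scale Got1 was higher by 0.45 (adjusted p = 0.0156) and the other 4 were not called. The median of all genes lay 0.56 higher on that scale.

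All 5 genes of aromatic amino acid breakdown had lower transcript levels on the deposited scale, where 20.7% of all genes tested were lower. Tat, the tyrosine aminotransferase that starts the pathway, stood at 1431, 1080 and 1371 FPKM in Wtapflox/flox and at 363, 720 and 913 FPKM in Wtap-HKO. It was the most uneven of the 5 among the Wtap-HKO livers, and its log2 fold change of -1.05 ± 0.34 was near the threshold (adjusted p = 0.0451). Hpd, the dioxygenase that makes homogentisate, stood at 840, 944 and 894 FPKM against 421, 391 and 360 FPKM (-1.19 ± 0.12, adjusted p = 6.24e-04). Hgd, which opens the ring of homogentisate, stood at 218, 234 and 215 FPKM against 156, 127 and 133 FPKM (-0.69 ± 0.11, adjusted p = 0.00332). The groups did not overlap for any gene of this pathway.

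The genes for the last steps of tyrosine breakdown were lower as well. Gstz1, the maleylacetoacetate isomerase, stood at 125, 118 and 126 FPKM in Wtapflox/flox and at 62.1, 59.0 and 58.0 FPKM in Wtap-HKO (-1.04 ± 0.079, adjusted p = 3.00e-04). Fah, the fumarylacetoacetate hydrolase that ends the pathway, stood at 269, 244 and 249 FPKM against 113, 117 and 101 FPKM (-1.20 ± 0.098, adjusted p = 3.65e-04). Hpd, Fah and Gstz1 were also lower on the TPM scale, and Tat and Hgd were not called there. The call of Tat was lost without Wtapflox/flox replicate 1 (adjusted p = 0.134), 2 (adjusted p = 0.0756) or 3 (adjusted p = 0.115) and without Wtap-HKO replicate 1 (adjusted p = 0.0525) or 2 (adjusted p = 0.0767). Without Wtap-HKO replicate 1 its log2 fold change was -0.66, and over all alternatives its adjusted p ran from 0.0180 to 0.255.

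The genes of histidine breakdown followed the same direction with 3 of 3 lower, where 20.7% of all genes tested were lower. Uroc1, the urocanase, stood at 124, 134 and 131 FPKM in Wtapflox/flox and at 63.0, 51.4 and 48.2 FPKM in Wtap-HKO (-1.27 ± 0.12, adjusted p = 5.07e-04). Amdhd1, the imidazolonepropionase, stood at 96.6, 105 and 87.9 FPKM against 56.6, 64.9 and 51.5 FPKM (-0.74 ± 0.12, adjusted p = 0.00335). Ftcd, which passes the formimino group of histidine to tetrahydrofolate, stood at 179, 175 and 153 FPKM against 69.3, 87.8 and 72.0 FPKM (-1.15 ± 0.12, adjusted p = 8.21e-04). Ftcd and Uroc1 were also lower on the TPM scale and Amdhd1 was not called there (-0.16, adjusted p = 0.223). The groups did not overlap for any of these genes.

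In the pathway of glycine and its methylated precursors 6 of 9 genes were lower, with a median log2 fold change of -0.54. The TPM scale gave 1 lower (Sardh) and 2 higher (Amt and Dmgdh) with a median of 0.043. The calls of Shmt1, Shmt2, Agxt2, Gldc and Gcsh were lost there. Of all genes tested 20.7% were lower and 19.5% higher on the deposited scale, against 6.02% and 48.8% on the TPM scale. Sardh, the mitochondrial sarcosine dehydrogenase, had the largest change and stood at 173, 168 and 154 FPKM in Wtapflox/flox and at 74.7, 55.0 and 50.4 FPKM in Wtap-HKO (-1.48 ± 0.16, adjusted p = 7.81e-04). Dmgdh, which makes the sarcosine that Sardh uses, stood at 129, 108 and 95.7 FPKM against 90.6, 97.4 and 95.8 FPKM and was not called (-0.22 ± 0.12, adjusted p = 0.196). The enzymes of these consecutive steps thus had different values, and Sardh went from between 21.8% and 22.9% of the summed FPKM of the pathway to between 10.9% and 15.6%, while Dmgdh went from between 14.0% and 17.1% to between 19.0% and 21.7%, both without overlap. On the TPM scale Sardh was lower (-0.89) and Dmgdh was higher (0.37, adjusted p = 0.0260). The rise of Dmgdh was below the 0.56 by which the median of all genes lay higher there.

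The glycine cleavage system, a mitochondrial complex, was represented by 3 subunits with unequal values. Gldc, the decarboxylating subunit, stood at 41.2, 54.3 and 41.6 FPKM in Wtapflox/flox and at 30.1, 35.2 and 31.0 FPKM in Wtap-HKO (-0.50 ± 0.13, adjusted p = 0.0231). Gcsh, the lipoyl carrier, stood at 57.5, 54.1 and 54.6 FPKM against 40.6, 39.1 and 34.4 FPKM (-0.54 ± 0.091, adjusted p = 0.00424). Amt, the aminomethyltransferase, stood at 20.9, 23.3 and 20.4 FPKM against 20.6, 20.7 and 19.8 FPKM and was not called, with a 95% interval of the log2 fold change from -0.28 to 0.12. Gldc and Gcsh lay below the controls in every Wtap-HKO library and Amt overlapped with them, and on the TPM scale Amt was higher (0.51, adjusted p = 0.00321). The call of Gldc was lost without Wtap-HKO replicate 1 (adjusted p = 0.0710) or 3 (adjusted p = 0.0769), where its adjusted p over all alternatives ran from 0.00956 to 0.586.

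The genes of the hydroxymethyltransferases, which convert serine to glycine, were both lower. Shmt1, the cytosolic enzyme, stood at 45.7, 39.8 and 42.6 FPKM against 25.3, 24.3 and 23.3 FPKM (-0.81 ± 0.086, adjusted p = 8.19e-04), and Shmt2, the mitochondrial one, was at 63.1% of the control mean (-0.68 ± 0.15, adjusted p = 0.0117). Agxt2, a mitochondrial aminotransferase that also uses glyoxylate, was at 61.1% of the control mean (-0.71 ± 0.090, adjusted p = 0.00150). Agxt, the aminotransferase that detoxifies glyoxylate by making glycine, stood at 150, 190 and 147 FPKM against 109, 146 and 112 FPKM and was not called (-0.41 ± 0.16, adjusted p = 0.0755). Its groups did not overlap, since the highest Wtap-HKO value of 146 FPKM lay just under the lowest control of 147 FPKM. Agxt was called lower without Wtap-HKO replicate 2 (adjusted p = 0.0324), with an adjusted p over all alternatives from 0.0132 to 0.309. The glycine pathway as a whole held 0.147% to 0.161% of all FPKM in Wtapflox/flox and 0.142% to 0.156% in Wtap-HKO, ranges that overlapped.

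**Figure D3:**
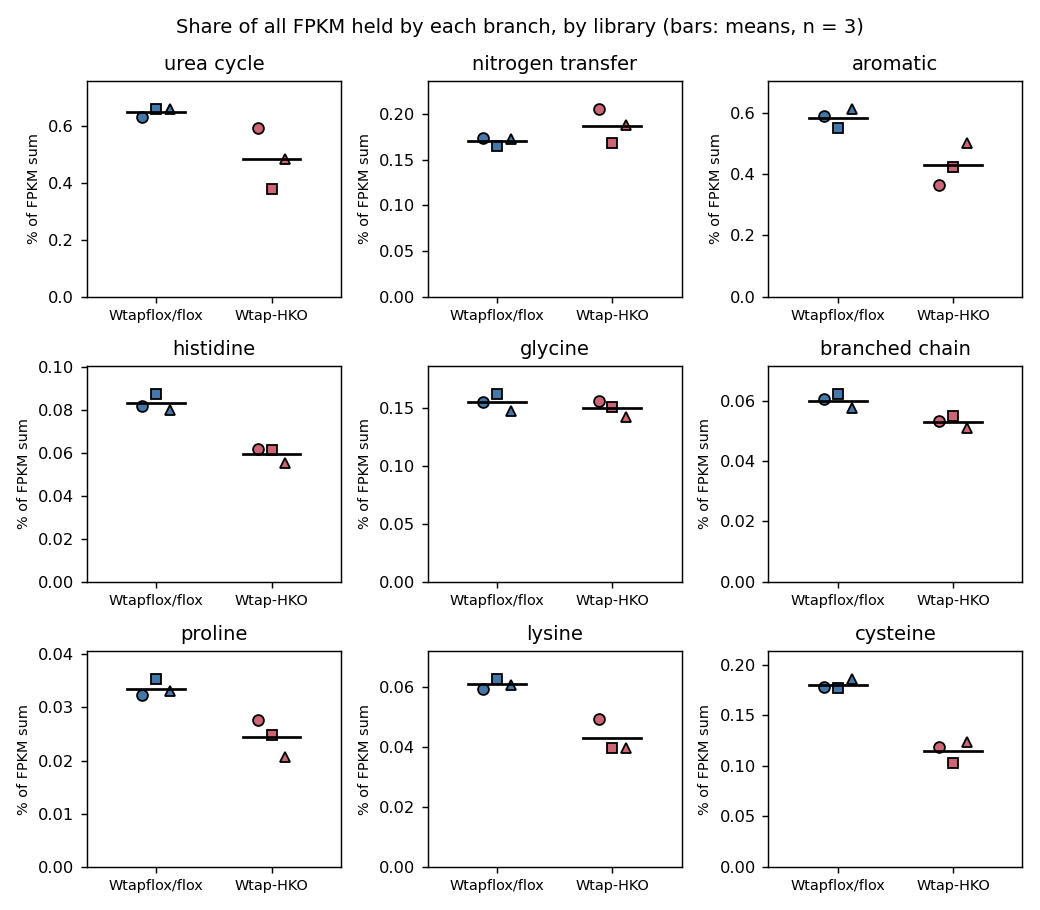
Share of all FPKM in a library held by each pathway, in percent from 0, with a point for each library (circle, square and triangle for replicates 1, 2 and 3) and a line for the mean (n = 3 per group). The groups overlap for nitrogen transfer (0.164% to 0.173% against 0.168% to 0.205%) and for glycine, and lie apart for the other pathways shown.

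Of the genes of branched chain amino acid breakdown 6 of 8 were lower, with a median log2 fold change of -0.75. The TPM scale gave 3 lower (Bckdha, Ivd and Pccb), 1 higher (Bckdhb, 0.39, adjusted p = 0.0427) and a median of -0.17. There the calls of Bcat2, Pcca and Mccc2 were lost, and the median of all genes lay 0.56 higher. The share over all genes tested was 20.7% lower on the deposited scale, with 6.02% lower and 48.8% higher on the TPM scale. Bcat2, the mitochondrial aminotransferase of the first step, stood at 9.58, 9.72 and 8.50 FPKM in Wtapflox/flox and at 6.58, 4.48 and 4.61 FPKM in Wtap-HKO (-0.82 ± 0.16, adjusted p = 0.00744). An antisense gene, 0610005C13Rik, overlaps Bcat2 at a higher level (42.2 FPKM in Wtapflox/flox, 10.3 FPKM in Wtap-HKO), and without a stated strand setting the reads of this pair cannot be told apart. Ivd, the isovaleryl-CoA dehydrogenase of leucine breakdown, stood at 46.6, 48.9 and 50.8 FPKM against 27.1, 29.3 and 25.1 FPKM (-0.84 ± 0.090, adjusted p = 8.12e-04). Both genes were separated between the groups in every library.

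The branched chain ketoacid dehydrogenase, the committed step, is built on alpha and beta subunits encoded by Bckdha and Bckdhb. Bckdha stood at 50.9, 47.1 and 43.1 FPKM in Wtapflox/flox and at 27.5, 24.9 and 21.3 FPKM in Wtap-HKO (-0.93 ± 0.12, adjusted p = 0.00151). Bckdhb stood at 56.9, 58.1 and 46.0 FPKM against 38.2, 54.0 and 48.4 FPKM and was not called, with a 95% interval of the log2 fold change from -0.57 to 0.17. The ratio of Bckdha to Bckdhb, which no scaling between libraries can change, was 0.894, 0.810 and 0.938 in Wtapflox/flox and 0.721, 0.462 and 0.441 in Wtap-HKO. The groups did not overlap, with a difference of -0.73 in the mean log2 ratio (exact two-sided permutation p = 0.1, the smallest that 3 against 3 allows, adjusted p = 0.4 over 8 pairs).

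Propionyl-CoA carboxylase, on the route from valine and isoleucine to the citric acid cycle, differed in the reverse sense. Pccb, the beta subunit, stood at 78.5, 82.9 and 73.5 FPKM against 29.1, 32.4 and 26.9 FPKM (-1.40 ± 0.099, adjusted p = 2.69e-04), and was the member with the smallest adjusted p. Pcca, the alpha subunit with the biotin site, stood at 21.0, 18.7 and 17.9 FPKM against 11.6, 12.9 and 11.4 FPKM (-0.67 ± 0.098, adjusted p = 0.00254). Both were lower, but unequally, as the ratio of Pcca to Pccb was 0.267, 0.225 and 0.244 in Wtapflox/flox and 0.399, 0.399 and 0.424 in Wtap-HKO, without overlap (difference 0.74 in the mean log2 ratio, exact two-sided permutation p = 0.1, adjusted p = 0.4). Ggact, a gene on the strand opposite to Pcca, had a mean of 6.24 FPKM where Pcca had 15.6 FPKM, so part of the reads given to Pcca cannot be told from those of Ggact.

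The subunits of methylcrotonyl-CoA carboxylase, an enzyme of leucine breakdown, had closer fold changes. Mccc2, the beta subunit, stood at 27.1, 25.0 and 23.6 FPKM against 19.1, 20.8 and 16.7 FPKM (-0.42 ± 0.11, adjusted p = 0.0215), and Mccc1, the alpha subunit, at 5.34, 5.47 and 4.49 FPKM against 4.14, 4.36 and 3.97 FPKM (-0.28 ± 0.11, adjusted p = 0.0899). Mccc1 was not called although its groups did not overlap. The ratio of Mccc1 to Mccc2 overlapped between the groups (difference 0.14, exact permutation p = 0.2, adjusted p = 0.4). The call of Mccc2 was lost without Wtapflox/flox replicate 1 (adjusted p = 0.0731) or 2 (adjusted p = 0.0586) and without Wtap-HKO replicate 1 (adjusted p = 0.0513) or 3 (adjusted p = 0.0628), with a range of 0.0147 to 0.177 over all alternatives. Mccc1 was called lower without Wtapflox/flox replicate 3 (adjusted p = 0.0446), with a range of 0.0446 to 0.228.

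The ratios of the other 5 pairs overlapped between the groups. The difference in the mean log2 ratio was 0.22 for Got1 to Got2 (exact permutation p = 0.3), 0.52 for Gpt to Gpt2 (p = 0.2), -0.13 for Shmt1 to Shmt2 (p = 0.5), 0.30 for Agxt to Agxt2 (p = 0.3) and -0.30 for Prodh to Prodh2 (p = 0.4), all by exact two-sided tests with adjusted p from 0.4 to 0.5. With 3 livers a group p cannot go below 0.1 in this exact test, so a ratio that was not called is not shown to be equal in both groups.

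**Figure D4:**
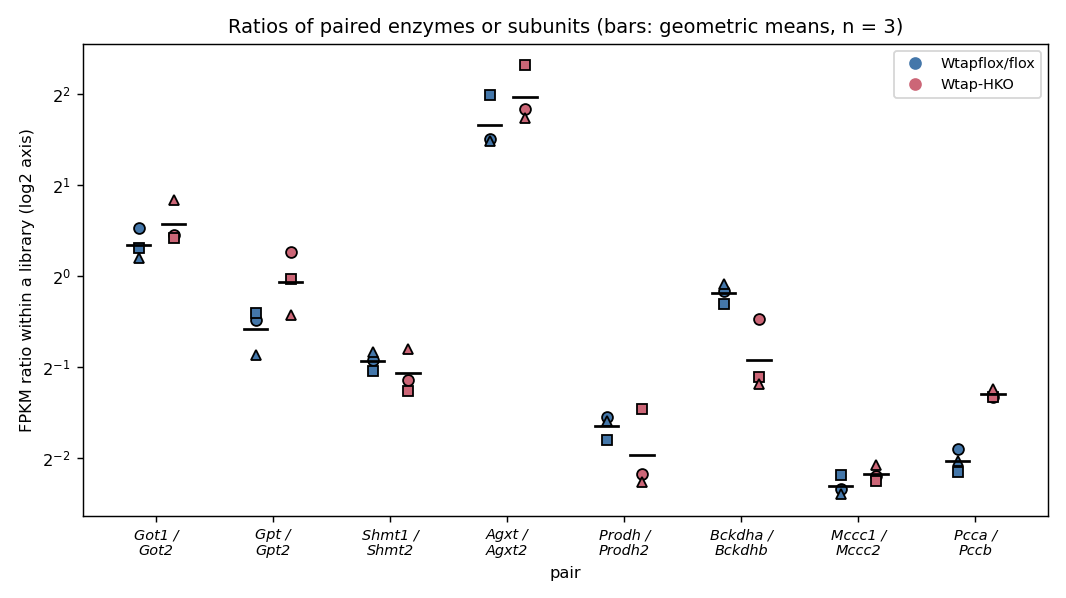
FPKM ratio of paired enzymes or subunits within each library, on a log2 axis, with circle, square and triangle for replicates 1, 2 and 3 and a bar for the geometric mean (n = 3 per group). The groups lie apart for Bckdha to Bckdhb (0.810 to 0.938 against 0.441 to 0.721) and for Pcca to Pccb (0.225 to 0.267 against 0.399 to 0.424) and overlap for the other 6 pairs.

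Proline breakdown held the largest fall of all members. Prodh (ENSMUSG00000003526, GRCm38 chromosome 16, 18060357 to 18090203), the mitochondrial proline dehydrogenase whose promoter window is printed above, stood at 29.5, 27.5 and 28.9 FPKM in Wtapflox/flox and at 8.99, 12.4 and 6.25 FPKM in Wtap-HKO. It lay at 32.2% of the control mean, with a log2 fold change of -1.67 ± 0.23 (adjusted p = 0.00194) that was -1.42 to -1.90 when a library was left out. Dgcr6 on the opposite strand, with a mean of 9.39 FPKM where Prodh had 18.9 FPKM, overlaps it. Prodh2, which oxidises hydroxyproline, stood at 86.3, 96.0 and 87.2 FPKM against 40.7, 34.3 and 29.9 FPKM (-1.37 ± 0.13, adjusted p = 5.04e-04). Aldh4a1, the dehydrogenase of the next step that makes glutamate, stood at 42.4, 44.3 and 37.6 FPKM against 35.1, 36.1 and 28.3 FPKM and was not called (-0.32 ± 0.12, adjusted p = 0.0737). Prodh and Prodh2 were lower on the TPM scale too (-1.10 and -0.78).

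All 4 genes of lysine and cysteine breakdown were lower, on both scales. Aass, the bifunctional enzyme that starts lysine breakdown, stood at 94.5, 94.0 and 111 FPKM in Wtapflox/flox and at 44.5, 29.3 and 42.7 FPKM in Wtap-HKO (-1.38 ± 0.17, adjusted p = 0.00143). Gcdh, the glutaryl-CoA dehydrogenase further along, stood at 197, 204 and 172 FPKM against 106, 104 and 81.4 FPKM (-0.98 ± 0.13, adjusted p = 0.00196). Both lay below the controls in every library. Cdo1, the dioxygenase that opens cysteine breakdown, stood at 779, 753 and 801 FPKM against 320, 312 and 351 FPKM (-1.25 ± 0.10, adjusted p = 3.82e-04). Csad, which decarboxylates its product on the way to taurine, stood at 93.3, 86.9 and 62.3 FPKM against 44.4, 31.7 and 32.9 FPKM (-1.14 ± 0.19, adjusted p = 0.00437). Cdo1 was the more even of this pair in both groups.

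Asrgl1 (ENSMUSG00000024654, GRCm38 chromosome 19, 9109868 to 9135636), an asparaginase that also removes isoaspartyl peptides, was the only member higher in Wtap-HKO on the deposited scale. It stood at 2.58, 1.84 and 2.42 FPKM in Wtapflox/flox and at 3.84, 5.08 and 4.58 FPKM in Wtap-HKO, where every mutant library lay above every control. The log2 fold change was 0.93 ± 0.17 (adjusted p = 0.00535) on the deposited scale and 1.53 on the TPM scale, and 0.79 to 1.03 when a library was left out. It had the lowest mean level of the 44 members.

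**Figure D5:**
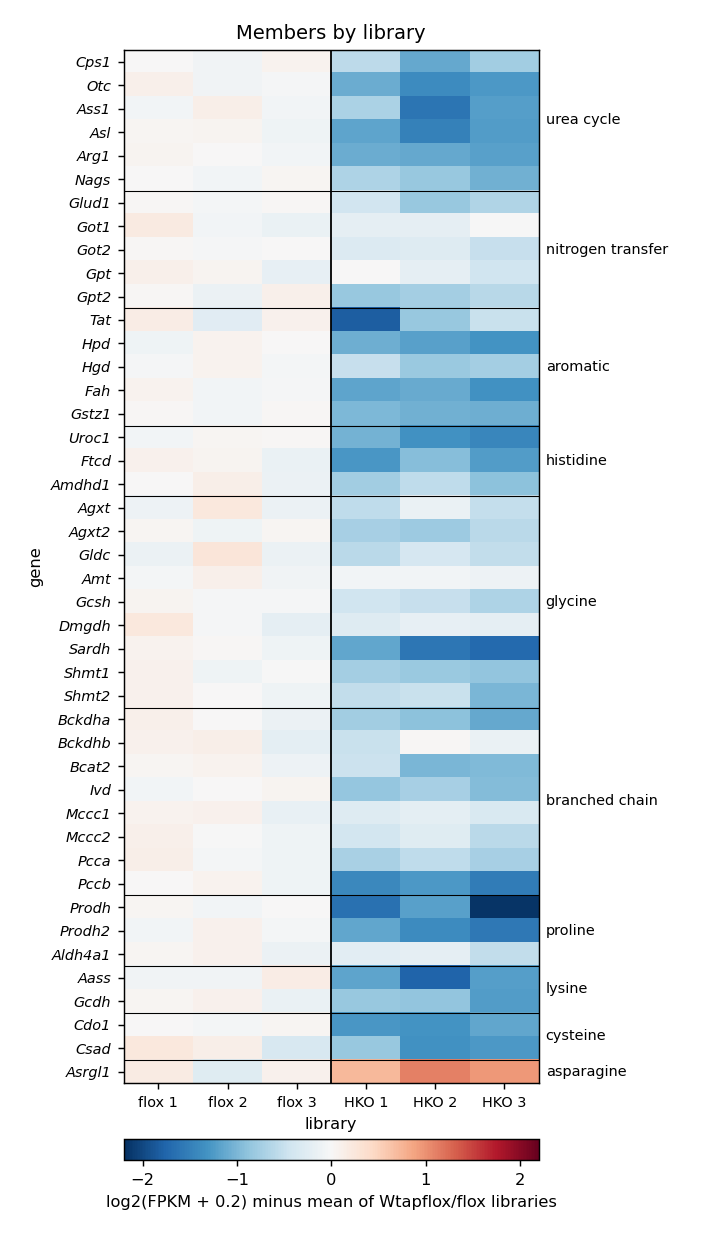
Each member in each library, as log2(FPKM + 0.2) minus the mean of the 3 Wtapflox/flox libraries, in blue below 0 and in red above 0, with pathways named at the right. The Wtap-HKO columns are blue in nearly all genes, with Prodh in replicate 3 the darkest, and Asrgl1 is red.

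The medians over all members lay close together in the Wtap-HKO libraries, but single members varied. The ratio of the highest to the lowest Wtap-HKO value ran from 1.04 (Amt) to 2.51 (Tat). The median member lay -0.74, -0.83 and -0.93 from the mean of the controls on the log2 scale in replicates 1, 2 and 3. Replicate 3 held the lowest Wtap-HKO value for 24 members, replicate 2 for 12 and replicate 1 for 8. The urea cycle genes were lowest in replicates 2 and 3, while 6 of 8 branched chain genes and 3 of 3 proline genes were lowest in replicate 3, and Tat was lowest in replicate 1. Among the members, 10 are overlapped by a gene of at least 1 FPKM on the opposite strand. In 5 of these (Bcat2, Prodh, Pcca, Shmt1 and Csad) the other gene exceeded 10% of the member's mean level. Smcr8 had a mean of 7.27 FPKM where Shmt1 had 33.5 FPKM, and Zfp740 had 8.27 FPKM where Csad had 58.6 FPKM. Without a stated strand setting such reads cannot be told apart.

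The other genes of these pathways were taken from a list of 43, of which 41 could be tested. Of these, 28 were lower, 1 was higher and 12 were not called on the deposited scale, with a median log2 fold change of -0.84. The background over all genes tested was 20.7% lower and 19.5% higher on that scale. The TPM scale gave 16 lower and 7 higher, against a background of 6.02% lower and 48.8% higher. The largest falls were those of Glul and Oat. Glul, the pericentral glutamine synthetase that takes up the ammonia left by the urea cycle, stood at 396, 412 and 378 FPKM in Wtapflox/flox and at 76.7, 151 and 47.3 FPKM in Wtap-HKO (-2.27 ± 0.38, adjusted p = 0.00421). Oat, the ornithine aminotransferase, stood at 328, 425 and 363 FPKM against 130, 142 and 51.9 FPKM (-1.90 ± 0.37, adjusted p = 0.00752). Ado, a thiol dioxygenase acting on cysteamine, was the one that rose, from 4.12, 4.66 and 4.27 FPKM to 5.64, 7.06 and 6.01 FPKM (0.50 ± 0.12, adjusted p = 0.0155). By pathway, 3 of 3 aromatic, 3 of 3 glyoxylate, 3 of 3 lysine and 1 of 1 histidine genes tested were lower on the deposited scale. So were 8 of 14 branched chain, 5 of 7 ornithine and glutamine, 4 of 8 methionine and cysteine and 1 of 2 serine and threonine genes.

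Promoter letters were counted over the 39 members with a RefSeq window of 300 bases, against 27025 genes with a window, on both strands and in any window of a gene. Asl, Arg1, Gpt, Cps1 and Cdo1 were not matched. The CCAAT box (CCAAT) occurred in 48.7% of members and 41.1% of all genes, the GC box (GGGCGG) in 48.7% and 38.2%, and the TATA box (TATAAA) in 10.3% and 15.7%. The AP-1 letters occurred in 1 member, Hpd, 139 bases before the start, and in 5.95% of all genes. The HNF4 letters occurred in 1 member, Agxt2, 21 bases before 1 of its starts and 67 before the other, and in 0.555% of all genes. The median GC content was 56.8% in members and 52.7% in all genes. Such matches describe the sequence and are no evidence of binding.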

How the data were processed

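Liver RNA of 6 mice was sequenced. Per the labels' processing notes the authors aligned reads with TopHat2 and counted them per gene with HTSeq 0.6.1 on GRCm38.p6. They deposited FPKM values with gene length and position (other columns). Which tool made the FPKM, which annotation release was used and whether counting used strand is not given in the sources used here. FPKM times gene length gave whole reads for 100% of values within 0.01 reads. Between replicates the reads differed beyond sampling noise (chi-square per degree of freedom 19.7 to 37.1), so each liver counted as 1 replicate.

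Genes whose mean reached 0.2 FPKM were tested two-sided by limma 3.58.1 in R 4.3.3 (lmFit, eBayes with trend) on log2(FPKM + 0.2), with Benjamini-Hochberg adjustment over all genes. Fold changes are on this scale and are too small for low genes. Pair ratios were tested by exact permutation. The scripts were tested on simulated data. The members, lists, pairs and motifs were chosen with earlier results of these data known. Every member is named, and of the other pathway genes the 2 called with the largest fall and the 2 with the largest rise at 1 FPKM or more, of which only 1 rose. Promoters are shown for the called members with the largest fall and rise. Proteins, which had been planned, were not used here. Alternatives were pseudocounts of 1 and 0.05, other filters, TPM and median-of-ratios scaling, eBayes without trend, voom on rebuilt reads, a replicate block, protein-coding genes alone and leaving out each library. Tables were made with pandas 2.3.3 and numpy 2.4.6, figures with matplotlib 3.10.9 (Python 3.11.15).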

Additional observations from a re-analysis of the deposited data

How the results depend on the processing

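Apart from the TPM scale, 15 alternatives gave 32 to 36 members lower and 1 higher, and 32 of 36 calls held under each of them, the exceptions being Tat, Got2, Gldc and Mccc2. Leaving out a library gave 32 to 35 lower, 1 higher and a median of -0.85 to -0.78. The TPM scale gave 18 lower, 5 higher and a median of -0.25, and the log2 fold change turned positive for Got1 (0.45), Got2 (0.23), Gpt (0.38), Agxt (0.18), Gldc (0.085), Amt (0.51), Gcsh (0.043), Dmgdh (0.37), Bckdhb (0.39), Mccc1 (0.29), Mccc2 (0.16) and Aldh4a1 (0.26), since that scale adds about the 0.56 by which the median of all genes moves. With a replicate block 36 members were lower and 1 higher. There Agxt (adjusted p = 0.0132) and Aldh4a1 (adjusted p = 0.0247) were gained and Tat was lost (adjusted p = 0.0553). The numbers were not taken as pairing the livers, since deviations of same-numbered libraries correlated only at 0.015, 0.043 and 0.064 across genes. Wtapflox/flox replicates 2 and 3 correlated best with the Wtap-HKO library of the same number, and replicate 1 with Wtap-HKO replicate 2 (0.022). Correlations of differently numbered libraries ran from -0.063 to 0.022. Tat was also lost with no filter on low values (adjusted p = 0.0975) and in eBayes without trend (adjusted p = 0.0622), and Agxt was gained by voom (adjusted p = 0.0470). Depth did not limit the members at 112 reads or more, but 3 livers a group limit the pair ratios. No reference measure here sets which scale holds.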
